A study of Arabidopsis thaliana with 6 samples.

Results

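The genes described are 44 nuclear genes of photosynthesis in Arabidopsis thaliana, chosen by identifier from the 33323 genes counted. They comprise 9 genes of the photosystem II antenna (LHCB), 4 of the photosystem I antenna (LHCA), 8 of photosystem II subunits and 11 of photosystem I subunits, 3 of electron carriers, 7 of carbon fixation and the 2 transcription factor genes GLK1 and GLK2. Their transcripts were measured by RNA sequencing in cut portions of the style, the tissue between stigma and ovary, with pollen tubes grown through it. The 3 wild-type samples were of the accession Col-0, and the 3 paps1-1 samples carried paps1-1, an allele of the nuclear poly(A) polymerase gene PAPS1, in Col-0. The labels name no treatment or age, and they do not say whether pollen tube, style or both carried the mutation. Only for wild type do they speak of biological replicates; nothing ties the paps1-1 samples to separate plants, and a p-value then covers sample-to-sample spread that may be technical.

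The light reactions of photosynthesis run in the thylakoid membranes of chloroplasts. Antenna proteins bind chlorophyll and pass light energy to the 2 photosystems, and plastocyanin and ferredoxin carry electrons between and beyond them. The energy gained drives the Calvin-Benson cycle in the stroma, where Rubisco fixes carbon dioxide. Most of the plastid proteins are encoded in the nucleus, made in the cytosol and imported, and the genes for them respond to light, to the state of the chloroplast and to GOLDEN2-LIKE (GLK) transcription factors. Green floral tissues such as the style hold chloroplasts, whereas pollen tubes do not photosynthesise. Photosynthesis proteins encoded in the plastid genome were not analysed here.

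Several members belong to families of close copies, which matters because reads that fit more than 1 gene were not counted. The Rubisco small subunit is encoded by RBCS1A on chromosome 1 and by RBCS1B, RBCS2B and RBCS3B on chromosome 5. A stretch of 60 coding bases, bases 22 to 81 of RBCS1A, is shown with the bases that differ from RBCS1A in capitals (RefSeq, TAIR10.1). It was picked as the ungapped stretch with the most differences from RBCS1A, so it is not typical of the whole coding sequence.
RBCS1A: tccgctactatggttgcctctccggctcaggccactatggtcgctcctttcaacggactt
RBCS1B: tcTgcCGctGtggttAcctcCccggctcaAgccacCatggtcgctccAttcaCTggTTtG
RBCS2B: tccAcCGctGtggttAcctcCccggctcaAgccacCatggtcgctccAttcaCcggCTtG
RBCS3B: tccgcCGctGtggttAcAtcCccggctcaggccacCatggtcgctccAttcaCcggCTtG

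Over this stretch the 3 genes of chromosome 5 differed from RBCS1A at 14, 13 and 12 bases. Over the whole coding sequence RBCS1A was 89.93% identical to RBCS1B, 90.11% to RBCS2B and 87.7% to RBCS3B, while RBCS1B and RBCS2B were 97.25% identical to each other. Of the 50-base windows in transcripts of RBCS1A, 1.48% also occurred in another gene. The share was 13.98% for RBCS1B, 21.44% for RBCS2B and 18.26% for RBCS3B. The LHCB1 genes on chromosome 1, which encode the most abundant protein of the trimeric antenna, were 95.65% to 96.39% identical to one another. Bases 25 to 84 of LHCB1.3, picked by the same rule, are shown with differences from LHCB1.3 in capitals.
LHCB1.3: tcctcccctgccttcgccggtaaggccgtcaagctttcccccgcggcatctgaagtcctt
LHCB1.1: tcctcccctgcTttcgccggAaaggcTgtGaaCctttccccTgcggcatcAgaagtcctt
LHCB1.2: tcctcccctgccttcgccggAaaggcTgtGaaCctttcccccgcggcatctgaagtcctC

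In all, 10 of the 44 members shared a window of 50 bases with another gene and 34 shared none. The read length is not given in the sources used here, so how many reads of the 10 were lost is unknown, and their levels are uncertain. Another source of uncertainty is overlap with an exon of a gene on the opposite strand, found for 13 members. The most affected was PSAH1, which overlaps AT3G16130 by 693 exon bases. Its reads counted by strand summed to 4.64 times its unstranded count. That ratio was above 1.1 in 4 members, also in LHCB3 (1.51, with 186 overlapping exon bases), LHCB6 (1.17, with 246) and LHCB1.1 (1.31, with no overlap found). The libraries do not mark strand, so reads in such overlaps cannot be assigned.

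The 250 bases before each gene record's 5′ end were searched on both strands for 4 motifs known from light-regulated plant promoters or core promoters. The G-box CACGTG was present in 7 of the 44 windows (15.9%) and in 7.4% of 17778 windows of tested protein-coding genes. The I-box GATAAG was present in 11 (25.0%, against 12.0%), the motif AAAATCT bound by the clock factor CCA1 in 11 (25.0%, against 16.3%), and TATAAA in 19 (43.2%, against 45.9%). Only 3 windows held both a G-box and an I-box, and they are shown with those motifs in capitals, on either strand, ending at the base before the gene record (RefSeq, TAIR10.1). LHCB6 lies on the minus strand of chromosome 1, RBCS2B on the minus strand of chromosome 5 and PSAH2 on the plus strand of chromosome 1.
LHCB6: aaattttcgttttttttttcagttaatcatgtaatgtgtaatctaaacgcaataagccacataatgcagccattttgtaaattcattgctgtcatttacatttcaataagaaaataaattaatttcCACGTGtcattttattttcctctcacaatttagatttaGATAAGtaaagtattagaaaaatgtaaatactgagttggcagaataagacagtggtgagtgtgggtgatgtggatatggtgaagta
RBCS2B: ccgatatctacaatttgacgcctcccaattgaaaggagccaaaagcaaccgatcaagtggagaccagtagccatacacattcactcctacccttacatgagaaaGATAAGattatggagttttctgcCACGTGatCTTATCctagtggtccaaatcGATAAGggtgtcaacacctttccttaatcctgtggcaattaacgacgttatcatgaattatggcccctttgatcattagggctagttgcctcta
PSAH2: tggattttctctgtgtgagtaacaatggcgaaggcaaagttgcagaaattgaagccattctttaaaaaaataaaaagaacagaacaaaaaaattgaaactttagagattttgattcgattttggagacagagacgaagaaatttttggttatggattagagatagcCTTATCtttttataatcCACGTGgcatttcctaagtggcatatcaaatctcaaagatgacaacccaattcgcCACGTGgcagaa

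The RBCS2B window held 1 G-box and 3 I-boxes and the PSAH2 window 2 G-boxes. A motif match describes the letters of the window. The 3 genes did not share a level: in wild type, levels in CPM (a gene's reads scaled to a common library total) per kilobase of exon were 5.13 ± 1.15 for LHCB6, 8.83 ± 2.08 for PSAH2 and 0.313 ± 0.123 for RBCS2B (SD, n = 3).

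Reads counted in genes ranged from 4541233 in paps1-1 replicate 2 to 21031017 in wild-type replicate 1. Reads that mapped to several places made up 74.6% in paps1-1 replicate 2 and 28.0% in paps1-1 replicate 1. The share was 7.28% to 15.1% in wild type and 7.75% in paps1-1 replicate 3. Levels are given as CPM, after TMM scaling, a correction for library composition. The floor, 3 reads, equalled 0.152 to 0.638 CPM in single libraries. The members together received 6505, 4928 and 4552 reads in the wild-type libraries, and 4119, 1234 and 14563 in the paps1-1 libraries (replicates 1 to 3 in order). PAPS1 itself stood at 143, 101 and 104 CPM in wild type and at 88.4, 99.4 and 59.9 CPM in paps1-1, which did not pass the test (log2 fold change -0.49, SE 0.28, n = 3 per genotype; edgeR adjusted p = 0.609). Of 13 style markers 7 were tested; SPT, NGA1 and NGA3, regulators of style development, were present in every library, and 3 markers, HEC1, HEC2 and CRC, had no read in any. Marker transcripts of pollen tube and style were thus both present: 15 pollen tube markers summed to between 51743 and 122075 CPM and the style markers to between 38.5 and 98.1 CPM. The 6 ovary and ovule markers summed to between 51.0 and 102 CPM, so the style list does not set style apart from ovary. In such bulk samples fewer cells of a type and less RNA per cell cannot be told apart.

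Paps1-1 replicate 3 stood apart from the other 5 libraries in the level of the members. In the wild-type libraries the summed level of all 44 was 336, 301 and 319 CPM. It was 244 and 263 CPM in paps1-1 replicates 1 and 2, and 736 CPM in paps1-1 replicate 3. That library was thus at 2.19 times the highest of the others, and paps1-1 replicates 1 and 2 were below all 3 wild-type libraries. Paps1-1 replicates 1 and 2 also had the highest shares of reads mapping to several places, and the part of this in their sums was not tested. RBCS1A alone made up 34.6% of the sum in paps1-1 replicate 3 and 14.0% to 20.9% in the others. Without RBCS1A the sum was 482 CPM in paps1-1 replicate 3 and 205 to 289 CPM in the others, a ratio of 1.67 to the highest.

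Of the 39 members with enough reads to be tested, 31 were highest in paps1-1 replicate 3, where 19.4% of all 18317 tested genes were highest. The other libraries held the maximum of 1 or 2 members each, against 13.8%, 10.7% and 25.9% of all genes in the wild-type libraries (replicates 1 to 3) and 12.4% and 17.8% in paps1-1 replicates 1 and 2. By library total without TMM scaling the count was 33. In 12 members that library was at least 1.5 times each other library (1.36% of all genes) and in 5 at least 2 times (0.295%). The 5 were RBCS1A, GAPA, RCA and PRK of carbon fixation and the antenna gene LHCB5. The 5 untested members, LHCB1.1, RBCS1B, RBCS2B, PSBO2 and GLK1, had at most 49 reads over all libraries, and the tested member with fewest had 55.

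**Figure D1:**
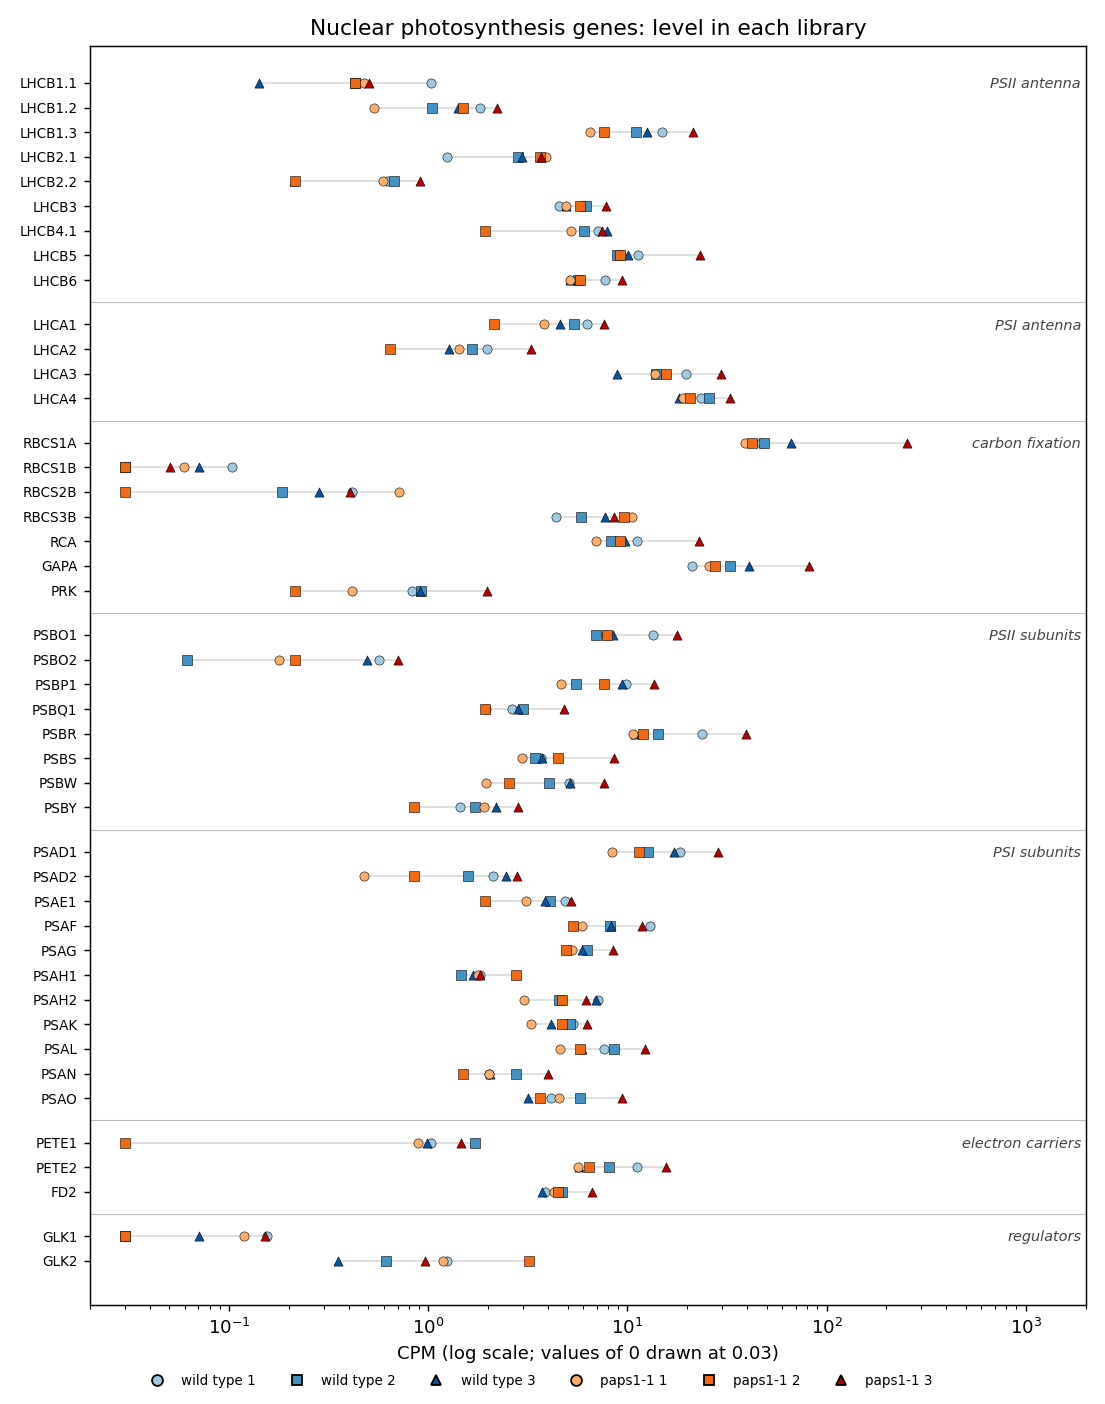
Level of each of the 44 members in each library, in CPM on a log axis, grouped by role; each point is 1 library, the grey line spans the lowest to the highest, and values of 0 are drawn at 0.03. Dark red triangles, paps1-1 replicate 3, are the rightmost points for 31 of the 39 tested members, with RBCS1A at 254 CPM farthest to the right.

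Per kilobase of exon (RefSeq lengths), wild-type levels spanned a wide range. RBCS1A was highest at 42.6 ± 8.66 CPM per kilobase (SD, n = 3), followed by PSBR at 20.8 ± 8.46, GAPA at 18.0 ± 5.61, LHCA4 at 17.3 ± 3.04 and PSAD1 at 14.1 ± 2.65. The 4 after RBCS1A had overlapping spreads, so their order is uncertain. LHCB1.3 was the highest photosystem II antenna gene, at 10.4 ± 1.61 CPM per kilobase. RBCS1B and GLK1 received at most 3 reads in any library, the floor, so no order between them is given. In counts, 31 of the 39 tested members averaged under 10 CPM in wild type.

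In the photosystem II antenna, LHCB1 and LHCB2 form the mobile trimers, and LHCB4 to LHCB6, named CP29, CP26 and CP24, are the minor antennae that link them to the core. The 9 genes summed to 36.0 to 50.3 CPM in 5 libraries and to 76.5 CPM in paps1-1 replicate 3. LHCB5 (AT4G10340, CP26) stood at 11.3, 8.85 and 10.1 CPM in wild type and at 9.26, 9.15 and 23.3 CPM in paps1-1, here and below in the order of replicates 1 to 3. The first 5 libraries lay close together and paps1-1 replicate 3 stood at 2.07 times the highest of them. LHCB1.3 (AT1G29930) stood at 14.9, 11.0 and 12.5 CPM in wild type and at 6.47, 7.66 and 21.3 CPM in paps1-1. Here paps1-1 replicates 1 and 2 were below every wild-type library and replicate 3 above every one. LHCB4.1 (CP29) stood at 7.13, 6.04 and 7.86 CPM in wild type and at 5.22, 1.92 and 7.48 CPM in paps1-1, and its highest library was a wild-type one.

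LHCB2.1 (AT2G05100) took another course. It stood at 1.24, 2.81 and 2.95 CPM in wild type and at 3.92, 3.62 and 3.69 CPM in paps1-1, so the genotypes did not overlap and paps1-1 replicate 3 lay between the other 2. With a log2 fold change of 0.70 (SE 0.36, n = 3 in each group), LHCB2.1 missed the edgeR threshold (adjusted p = 0.540). Windows of 50 bases shared with other genes made up 22.7% of this gene and 28.15% of LHCB2.2. The remaining tested antenna genes of photosystem II, LHCB1.2, LHCB2.2, LHCB3 and LHCB6 (CP24), were each highest in paps1-1 replicate 3. The untested LHCB1.1 was highest in wild-type replicate 1, at 1.03 CPM against 0.506 CPM in paps1-1 replicate 3. Of these genes LHCB3 and LHCB6 carry the uncertainty of overlap given above. LHCB6, whose promoter window is shown above, stood at 7.74, 5.68 and 5.12 CPM in wild type and at 5.16, 5.75 and 9.35 CPM in paps1-1.

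All 4 genes of the photosystem I antenna were highest in paps1-1 replicate 3, where they summed to 73.1 CPM against 32.8 to 51.2 CPM elsewhere. LHCA4 (AT3G47470), a partner of LHCA1 in one of the 2 antenna dimers, stood at 23.3, 25.8 and 18.1 CPM in wild type and at 19.0, 20.6 and 32.7 CPM in paps1-1. LHCA3 stood at 19.6, 13.9 and 8.84 CPM in wild type and at 13.8, 15.5 and 29.6 CPM in paps1-1. For both, paps1-1 replicates 1 and 2 lay within the wild-type range. LHCA1 differed in that these replicates, at 3.80 and 2.13 CPM, were below the wild-type values of 6.30, 5.37 and 4.56 CPM, while replicate 3 was above them at 7.58 CPM.

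Among the photosystem II genes are the extrinsic proteins that shield the oxygen-evolving cluster (PSBO, PSBP, PSBQ), small membrane subunits, and PSBS, the sensor of excess light. All 7 tested were highest in paps1-1 replicate 3, and the 8 summed to 95.3 CPM there against 32.0 to 60.4 CPM elsewhere. PSBR (AT1G79040), which helps assemble the oxygen-evolving complex, stood at 23.7, 14.2 and 10.9 CPM in wild type and at 10.6, 11.9 and 39.4 CPM in paps1-1. PSBO1, the main manganese-stabilising protein, stood at 13.4, 6.96 and 8.42 CPM in wild type and at 7.83, 7.87 and 17.7 CPM in paps1-1. Wild-type replicate 1 was the second highest library for both. The small subunit gene PSBW stood at 5.11, 4.03 and 5.12 CPM in wild type and at 1.96, 2.55 and 7.63 CPM in paps1-1, with replicates 1 and 2 below and replicate 3 above all wild-type values.

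Of the 11 photosystem I subunit genes 8 were highest in paps1-1 replicate 3, but the excess was smaller: 2 reached 1.5 times each other library, and the summed level was 96.6 CPM against 42.3 to 71.4 CPM. In 9 of the 11, paps1-1 replicates 1 and 2 were both below the wild-type mean. PSAD1 and PSAD2 encode the stromal subunit that docks ferredoxin. PSAD1 (AT4G02770) stood at 18.3, 12.6 and 17.1 CPM in wild type and at 8.37, 11.5 and 28.4 CPM in paps1-1. PSAD2 (AT1G03130), the minor copy, stood at 2.12, 1.59 and 2.46 CPM in wild type and at 0.475, 0.851 and 2.78 CPM in paps1-1. The copies thus shared the same pattern, with replicates 1 and 2 below every wild-type library and replicate 3 above. The PSAD2 values of paps1-1 replicates 1 and 2 rested on 8 and 4 reads.

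PSAF, a subunit on the plastocyanin side, stood at 13.0, 8.18 and 8.28 CPM in wild type and at 5.93, 5.32 and 11.8 CPM in paps1-1. PSAH2, which docks the mobile antenna and has the promoter shown with a pair of G-boxes, stood at 7.13, 4.52 and 6.95 CPM in wild type and at 3.03, 4.68 and 6.17 CPM in paps1-1. In both genes the highest library was wild-type replicate 1. PSAH1, the member most affected by overlap with another gene, was highest in paps1-1 replicate 2.

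The electron carriers were plastocyanin (PETE1, PETE2) and ferredoxin (FD2). PETE2 (AT1G20340), the main plastocyanin gene, stood at 11.2, 8.12 and 5.69 CPM in wild type and at 5.64, 6.38 and 15.6 CPM in paps1-1. FD2, the main leaf ferredoxin gene, stood at 3.87, 4.70 and 3.72 CPM in wild type and at 4.27, 4.47 and 6.62 CPM in paps1-1. Both were highest in paps1-1 replicate 3, whereas PETE1 was highest in wild-type replicate 2, at 1.71 CPM. PETE1 had no read in paps1-1 replicate 2, where the floor of 3 reads was 0.638 CPM.

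The largest differences between libraries were in carbon fixation, where the 7 genes summed to 83.4 to 126 CPM in 5 libraries and to 370 CPM in paps1-1 replicate 3. RBCS1A (AT1G67090), the most abundant small subunit transcript of Rubisco, stood at 47.0, 48.3 and 66.7 CPM in wild type and at 39.0, 42.1 and 254 CPM in paps1-1. The values of paps1-1 replicates 1 and 2 were below every wild-type value, and that of replicate 3 was 3.82 times the highest of them. GAPA (AT3G26650), a subunit of the plastid glyceraldehyde-3-phosphate dehydrogenase, stood at 21.2, 32.8 and 40.7 CPM in wild type and at 25.7, 27.7 and 81.5 CPM in paps1-1. RCA (AT2G39730), the ATPase that reactivates Rubisco, stood at 11.2, 8.24 and 9.76 CPM in wild type and at 6.94, 9.15 and 23.0 CPM in paps1-1. In GAPA and RCA paps1-1 replicate 3 was at 2.00 and 2.06 times the highest other library.

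PRK, which makes the carbon dioxide acceptor, was low, at 0.826, 0.916 and 0.912 CPM in wild type and 0.415, 0.213 and 1.97 CPM in paps1-1. The values of paps1-1 replicates 1 and 2 rested on 7 reads and 1 read, and that of replicate 2 was below its floor of 0.638 CPM. RBCS3B (AT5G38410) did not follow RBCS1A. It stood at 4.39, 5.86 and 7.72 CPM in wild type and at 10.6, 9.58 and 8.54 CPM in paps1-1, so the genotypes did not overlap and paps1-1 replicate 3 was the lowest of its group. RBCS2B received 0 to 12 reads and RBCS1B 0 to 2 reads in single libraries. These small subunit genes are among those with shared sequence shown above, and most of the 4 genes' reads were those of RBCS1A.

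The regulators were near the limit of detection. GLK1 received 3, 0 and 1 reads in wild type and 2, 0 and 3 reads in paps1-1, at or below the floor of 3 reads in each. For the 0 reads in paps1-1 replicate 2 the exact 95% Poisson interval reached up to 0.785 CPM. GLK2 (AT5G44190) received 24, 10 and 5 reads in wild type (1.24, 0.610 and 0.351 CPM) and 20, 15 and 19 reads in paps1-1 (1.19, 3.19 and 0.961 CPM). Its highest value, in paps1-1 replicate 2, rested on 15 reads, with an exact 95% Poisson interval of 1.79 to 5.26 CPM that covers counting error only. In paps1-1 replicate 3 the value of GLK2 rested on 19 reads. It was below that of wild-type replicate 1 and above those of wild-type replicates 2 and 3. A link between GLK2 and the level of the antenna genes in that library was not tested.

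**Figure D2:**
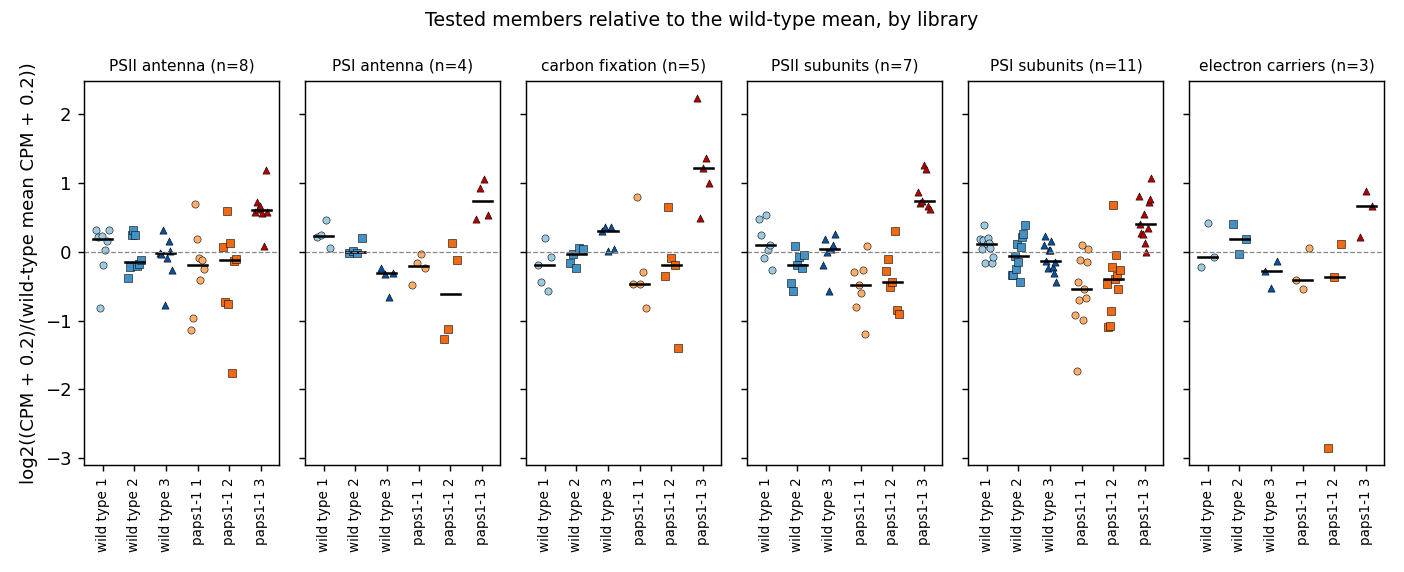
Level of each tested member but the regulator GLK2 in each library relative to its wild-type mean, by role. Values are log2 of CPM plus 0.2 over the mean plus 0.2. Each point is 1 gene and the black bar the median of the genes. Points of paps1-1 replicate 3 lie above 0 in nearly every role, those of paps1-1 replicates 1 and 2 mostly below, and the highest point is RBCS1A.

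The comparison of genotypes asked which members differed between paps1-1 and wild type beyond the spread of the libraries. None of the 39 tested members passed the edgeR quasi-likelihood test at an adjusted p under 0.05, where 2.34% of all tested genes did (1.16% higher and 1.18% lower). DESeq2 and limma-voom called 0 members as well, against 3.39% and 2.11% of all genes. At an unadjusted p under 0.05 edgeR counted 1 member, RBCS3B, which was higher; 10.3% of all genes reached that, 4.23% higher and 6.05% lower. Without the filter on low counts, edgeR called 1 member, RBCS1A (adjusted p = 0.0111), against 3.97% of all genes. In 2 members, RBCS3B and LHCB2.1, the genotypes did not overlap with paps1-1 higher (6.92% of all genes), and in 0 members with paps1-1 lower (7.82%).

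RBCS3B had a log2 fold change of 0.68 (SE 0.28, n = 3 in each group; edgeR adjusted p = 0.355). That of RBCS1A was 1.06 (SE 0.54; edgeR adjusted p = 0.537), and its wide error came with the single high library. GLK2 had 1.04 (SE 0.57; edgeR adjusted p = 0.592), and the genotypes overlapped. The fold changes of the 39 ran from -0.47 for PSAD2 to 1.06 for RBCS1A, with 28 above 0 (53.5% of all genes), 11 below (46.5%) and a median of 0.19 against 0.03 over all genes.

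Without paps1-1 replicate 3, with 2 paps1-1 and 3 wild-type libraries, most signs turned. Of the 39 tested then, 32 had a log2 fold change below 0 (50.6% of all genes) and 7 above (49.4%), and the median was -0.35 against -0.01 over all genes. The sign changed in 21 members. Again no member passed the edgeR test (1.97% of all genes did, 1.26% higher and 0.711% lower), and the lowest adjusted p was 0.173, for PSAD2. At an unadjusted p under 0.05, 7 members were lower (4.93% of all genes) and 2 higher (4.19%). The 7 were LHCB1.3, LHCB4.1, LHCA1, PSBW, PSAD1, PSAD2 and PSAF, and the 2 were RBCS3B and GLK2.

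RBCS1A then had a log2 fold change of -0.42 (SE 0.29), PSAD2 -1.79 (SE 0.56), PSBW -1.13 (SE 0.37) and LHCB1.3 -0.88 (SE 0.30), all with n = 3 and 2. The value of PSAD2 rested on only 8 and 4 reads in the paps1-1 libraries. RBCS3B kept its sign, at 0.76 (SE 0.32). Paps1-1 replicates 1 and 2 were both below every wild-type library in 13 of the 39 members (12.5% of all genes) and both above in 2 (12.1%). Both were below the wild-type mean in 27 of 39 members, against 34.9% of all genes, and paps1-1 replicate 3 was above that mean in 38 of 39, against 51.8%.

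By role, the median log2 fold change with and without paps1-1 replicate 3 was 0.52 and -0.30 in carbon fixation, 0.20 and -0.17 in the photosystem II antenna and 0.19 and -0.34 in the photosystem I antenna. It was 0.19 and -0.48 in photosystem II subunits, 0.03 and -0.55 in photosystem I subunits and 0.17 and -0.49 in electron carriers. Every role but the regulators thus had a median above 0 with that library and below 0 without it.

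**Figure D3:**
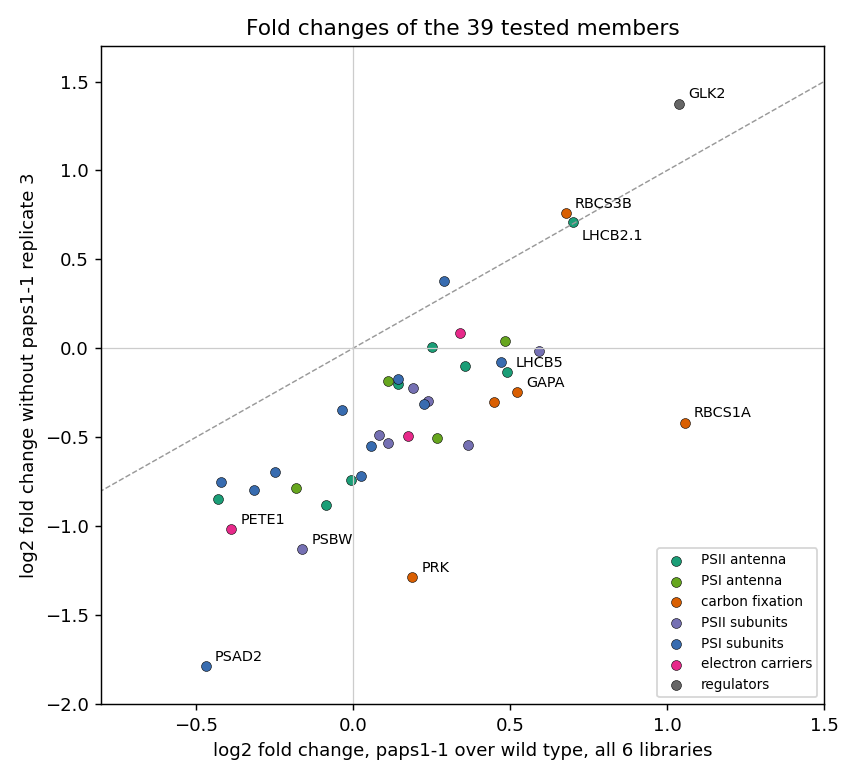
Log2 fold change of paps1-1 over wild type for each of the 39 tested members, with all 6 libraries on the x axis and without paps1-1 replicate 3 on the y axis; the dashed line marks equal values and colours mark roles. Most points lie below the line and 32 lie below 0 on the y axis, while RBCS3B, LHCB2.1 and GLK2 lie near or above the line.

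Further genes of the pathway, 64 in 5 lists that exclude the 44 members, were examined in the same fit. Of 56 tested, 0 passed the edgeR test, against 2.34% of all genes. At an unadjusted p under 0.05, 5 were higher (4.23% of all genes) and 1 lower (6.05%). There were 34 genes highest in paps1-1 replicate 3 (19.4% of all genes) and 40 with a log2 fold change above 0 (53.5%). Their median was 0.17 against 0.03 over all genes, and without paps1-1 replicate 3 it was -0.08 against -0.01. The lists differed. Of 11 tested other antenna and photosystem genes, 5 were highest in paps1-1 replicate 3, 3 in wild-type replicate 1 and 3 in wild-type replicate 3. Their median ratio of paps1-1 replicate 3 to the highest other library was 0.814. In 2 of the 11, LHCB1.5 and PSBX, the genotypes did not overlap with paps1-1 lower (7.82% of all genes). In the Calvin-Benson cycle 10 of 12 tested genes were highest in paps1-1 replicate 3. Among them FBA2, a plastid aldolase, was at 2.18 times and SBPASE, a phosphatase of the regeneration phase, at 2.07 times the highest other library. The oxidoreductase LFNR2, which reduces NADP with electrons from ferredoxin, was at 2.53 times.

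Photorespiration, the salvage path for the product of Rubisco's reaction with oxygen, gave the smallest p of these lists. GLDP1, a subunit of mitochondrial glycine decarboxylase, stood at 34.4, 25.2 and 52.5 CPM in wild type and at 50.7, 86.4 and 86.2 CPM in paps1-1 (log2 fold change 0.99, SE 0.31, n = 3 per genotype; edgeR adjusted p = 0.137). Here paps1-1 replicates 2 and 3 were both high and replicate 1 lay within the wild-type range. AGT1, a peroxisomal aminotransferase, went the other way, at 4.65, 2.81 and 5.97 CPM in wild type and 1.48, 1.49 and 2.83 CPM in paps1-1 (log2 fold change -1.14, SE 0.37; edgeR adjusted p = 0.179).

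Lists of other functions and cell types show what else moved with the high library. Genes of the plastid ribosome, 8 of 8 tested and 0 called by edgeR, summed to 55.2 CPM in paps1-1 replicate 3 against 23.5 to 35.2 CPM elsewhere. Chlorophyll synthesis genes summed to 177 CPM against 120 to 136 CPM. The 12 other regulators of photosynthesis genes, 7 of them tested, summed to 68.1 CPM against 49.7 to 65.8 CPM. By contrast the summed levels of the style markers (67.9 CPM, against 38.5 to 98.1), the pollen tube markers (74575 CPM, against 51743 to 122075), 12 clock genes (83.2 CPM, against 80.4 to 132), 4 chlorophyll breakdown genes (53.6 CPM, against 34.7 to 66.5) and 10 guard cell markers (30.9 CPM, against 20.7 to 32.8) lay within the range of the other 5 libraries.

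The ovary and ovule markers, at 101 CPM, lay within the range of 51.0 to 102 CPM of the other libraries. The 3 sepal, petal and stamen markers summed to 1.26 CPM in paps1-1 replicate 3, the lowest of all libraries, and AP1 had no read in any library. By depth the high library, with 18717968 gene reads and 7.75% of reads mapping to several places, lay within the range of the 3 wild-type libraries. The sums of the plastid ribosome and chlorophyll synthesis lists were highest in the same library as the sum of the members. Gene by gene, 4 of 8 and 8 of 15 tested genes were highest there, against 19.4% of all genes. The part of these lists in the result was not tested. No list had a gene called by edgeR at an adjusted p under 0.05. At an unadjusted edgeR p under 0.05, 4 of 15 pollen tube markers and 1 of 9 tested clock genes were lower, against 6.05% of all genes.

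**Figure D4:**
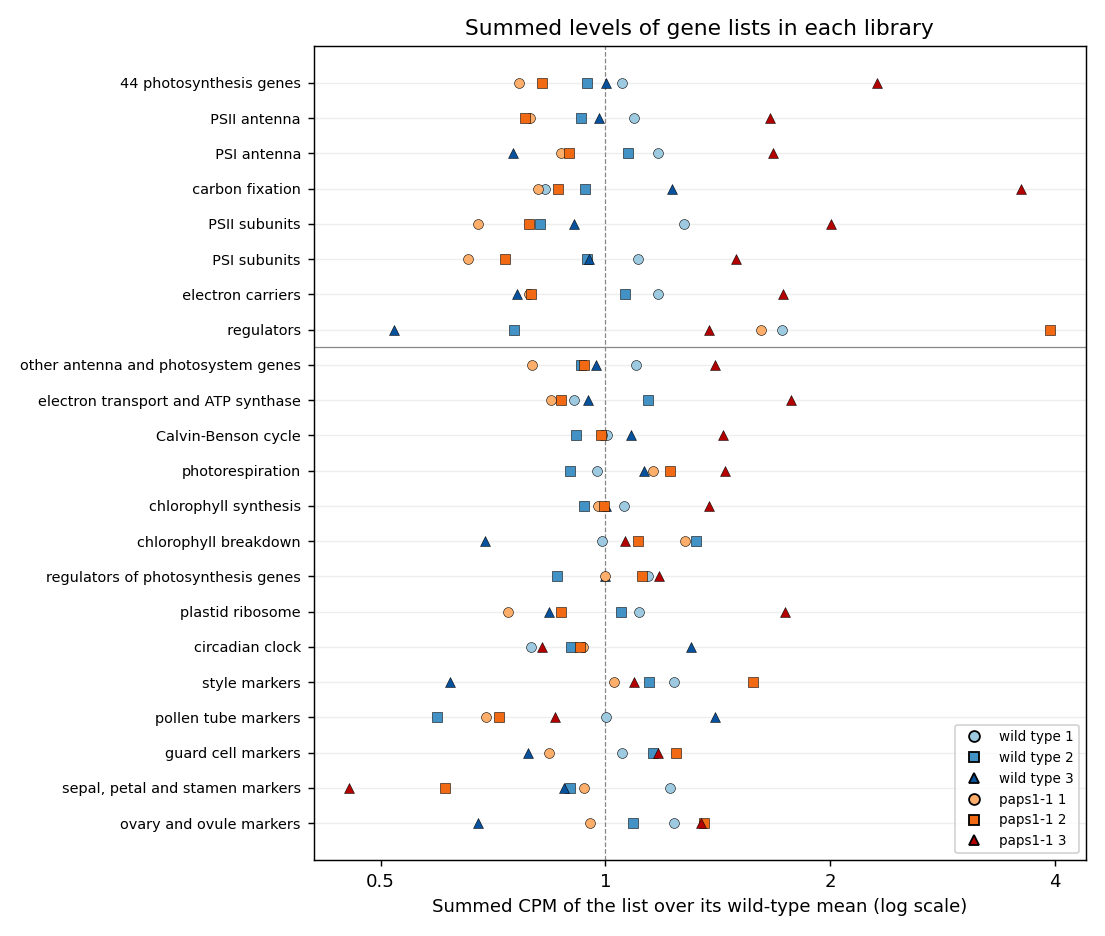
Summed CPM of the members, of each role and of each further list, divided by its wild-type mean, on a log axis; each point is 1 library. Paps1-1 replicate 3 is the rightmost point for the 44 members, for every role but the regulators, for all 5 further pathway lists and for the plastid ribosome, and lies among the other points for style, pollen tube, guard cell and clock lists.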

How the data were processed

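RNA from 3 wild-type and 3 paps1-1 samples was isolated with a PicoPure kit, digested with DNase on the column and sequenced as mRNA libraries on an Illumina HiSeq2000, per the labels' protocols. STAR and the TAIR10 genome are named in the submitters' processing notes; for the STAR version, annotation, alignment settings and read length, a value is not given in the sources used here. Deposited values are counts of whole reads for each gene, as STAR writes them, which the authors did not normalize as far as the values show. The unstranded counts were used, since both strands' totals differed by a ratio of 1.02 to 1.07. All pairs of libraries differed by more than sampling noise (chi-square per degree of freedom at least 31.2 over genes). No per-sample column was left unused for want of a label (0 columns). Reads assigned to no gene entered neither library sizes nor tests: unmapped 1.32% to 4.36% of all reads, multi-mapping 7.28% to 74.6%, outside genes 2.71% to 9.93% and ambiguous 0.228% to 1.65%. Total gene reads of 4541233 to 21031017 set the counting precision, and floors and intervals cover counting error only.

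The function filterByExpr of edgeR 4.0.16 kept 18317 genes (minimum count 10), and libraries were scaled by TMM, and CPM values use those library sizes. The genotypes were compared with edgeR's quasi-likelihood test (two-sided, R 4.3.3, common biological coefficient of variation 0.263), with calls at an adjusted p under 0.05 (Benjamini-Hochberg, over all genes tested). Log2 fold changes are paps1-1 over wild type. Counts of members are given beside the share of all tested genes; no test was made over the list. The fit was tested on simulated data for paps1-1 against wild type, with 200 of 18037 genes changed: the test found 18% of the 2-fold and 89% of the 4-fold changes, and 13 of 120 calls (10.8%) were false, above the nominal rate. Alternatives were strand counts, RLE and upper-quartile scaling, DESeq2 1.42.0, limma-voom (limma 3.58.1), a filter of 5 CPM in 3 libraries or none, the replicate number as a block, each library left out, and wild-type replicate 3 and paps1-1 replicate 2 left out together. Lengths, shared windows and sequences came from the RefSeq annotation of TAIR10.1, in which all 44 members were found; as its name differs from that of the counts' build, no coordinates are given.

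The members and lists were chosen with earlier results of these data known. By rule any member could be named, together with PAPS1 and, of each other list, up to 4 genes with the smallest p or genes at least 3 times higher in 1 library than in each other. HEC1, HEC2, CRC and AP1 were named after their 0 reads were seen.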

Additional observations from a re-analysis of the deposited data

How the results depend on the processing

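No member was called under strand counts, RLE, upper-quartile scaling, DESeq2, limma-voom, the filter of 5 CPM in 3 libraries, the replicate block or with any library left out; without a filter 1 was called, RBCS1A, whose adjusted p ran from 0.0111 to 0.905 over the alternatives. All genes called numbered 429 in the fit reported, 1042 without a filter, 216 under the filter of 5 CPM in 3 libraries and 237 with wild-type replicate 3 and paps1-1 replicate 2 left out. With each library left out in turn they numbered 333 to 456, and the members' median log2 fold change ran from -0.35 without paps1-1 replicate 3 to 0.41 without paps1-1 replicate 1. The members highest in paps1-1 replicate 3 numbered 27 to 33 over the scalings and strand counts. Of 323 values for 22 members under alternatives, 292 kept direction and side of the threshold and 30 changed sign, 10 of these without paps1-1 replicate 3; the cause was not tested.

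With each library left out in turn, log2 fold changes ran from -0.42 to 1.47 for RBCS1A, -0.25 to 0.81 for GAPA, -0.30 to 0.77 for RCA, -1.29 to 0.60 for PRK, -0.13 to 0.73 for LHCB5, -0.88 to 0.23 for LHCB1.3, -0.18 to 0.26 for LHCA4, -0.79 to 0.047 for LHCA1, -0.54 to 0.74 for PSBR, -0.30 to 0.56 for PSBO1, -1.13 to 0.21 for PSBW, -0.72 to 0.35 for PSAD1, -1.79 to 0.0054 for PSAD2 and -0.49 to 0.45 for PETE2. Signs also changed with strand counts for PSBW (0.053), PSAD2 (0.0056) and PETE2 (-0.021), with RLE for PSAD1 (-0.00041), with DESeq2 for PSAD1 (-0.0090), with limma-voom for PRK (-0.17) and PSAD1 (-0.14), and with wild-type replicate 3 and paps1-1 replicate 2 left out for LHCB1.3 (0.071) and PSBW (0.047). With the replicate block 482 genes and 0 members were called, the median was 0.08, and PRK (-0.20) and PSAD1 (-0.17) changed sign. Deviations of same-numbered libraries correlated at -0.256, 0.126 and -0.151, and those of differently numbered libraries at -0.157 to 0.336. The numbers thus gave no sign of pairing, but deviations from means of 3 libraries cannot exclude it. The low depth of paps1-1 replicate 2 limits members under its floor of 0.638 CPM.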

Other observations

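Among the 13760 genes with at least 50 reads in paps1-1 replicate 3, RBCS1A had the highest ratio of that library to the highest of the other 5. There were 4 genes at 3 times or more and 40 at 2 times or more; the 40 held 4 of the members and 6 genes of the further lists. The genes that follow were named after their values were seen, so their ratios are descriptions. AT5G28500, annotated as a Rubisco accumulation factor-like protein, stood at 3.79 CPM in paps1-1 replicate 3 and at 0.213 to 1.12 CPM elsewhere. AT3G47650, a cysteine-rich DnaJ-type protein annotated to the chloroplast, stood at 22.0 CPM and at 4.81 to 6.78 CPM elsewhere. These were the second and the third by ratio, and the fourth was AT1G03820, annotated as an E6-like protein, at 7.53 CPM against 1.33 to 2.50 CPM.

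The genes ranked 5 to 9 by ratio come next, and no count of plastid genes among the 40 was made. COR15A, a cold-induced protein of the chloroplast stroma, stood at 55.2 CPM in that library against 4.51 to 18.6 CPM. GS2, the plastid glutamine synthetase that recaptures ammonia from photorespiration, stood at 33.2 CPM against 6.65 to 12.1 CPM. ACA2, a carbonic anhydrase, stood at 16.6 CPM against 2.77 to 6.09 CPM. PSRP4, a protein of the plastid ribosome, stood at 24.4 CPM against 6.29 to 9.03 CPM, and the cyclophilin ROC4 at 28.3 CPM against 7.93 to 10.6 CPM. Further down were GA2OX8, a gibberellin oxidase (rank 12), at 3.69 CPM against 0.638 to 1.47 CPM, and NIT2, a nitrilase (rank 16), at 59.4 CPM against 7.23 to 25.1 CPM. The 6 genes of the further lists were LFNR2 (rank 10), GLDH1 (rank 15), FBA2 (rank 23), DVR (rank 31), SBPASE (rank 33) and GAPB (rank 36).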
